A study of Mus musculus with 15 samples.

Results

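The methyl-CpG binding protein genes on the mouse autosomes, Mbd1, Mbd2, Mbd3, Mbd4, Mbd6, Zbtb4 and Zbtb38, were examined for the cytosine modifications at their own CGs. The members were named one by one: the Mbd1, Mbd2, Mbd3, Mbd4 and Mbd6 genes, whose proteins carry a methyl-CpG binding domain (MBD), and the zinc finger genes Zbtb4 and Zbtb38. They are 7 of the 20807 autosomal protein-coding genes in the annotation, and not all genes with such a domain. All CGs between 2 kb upstream of the gene start and the gene end were taken, 3280 CGs of the 21353092 for which reads were counted. Coverage is given as reads per CG, the reads of a library in an element (promoter, exon or intron) divided by the number of CGs there, CGs without a read included, so that genes and elements of different length can be set side by side.

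The modification 5-methylcytosine (5mC) is set on CG dinucleotides by DNA methyltransferases and oxidized to 5-hydroxymethylcytosine (5hmC) by the TET enzymes, which are abundant in embryonic stem cells. In mammals 5hmC is mostly found in gene bodies and at regulatory elements, whereas the CG-dense islands at gene starts are mostly unmodified. Several proteins of the MBD family bind methylated CGs and recruit repressors to them: Mbd2 and Mbd3 are alternative subunits of the nucleosome remodelling and deacetylase complex NuRD, Mbd1 is a repressor that also has CXXC zinc fingers, Mbd4 is a DNA glycosylase that removes thymine from mismatches with guanine, and Mbd6, like mammalian Mbd3, has an MBD but lacks selective binding to methylated CGs. Zbtb4 and Zbtb38 bind methylated CGs through zinc fingers and are relatives of Zbtb33 (Kaiso).

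DNA came from E14TG2a cells, an XY line of mouse embryonic stem cells that was cultured on gelatin with LIF and 15% FBS. For 5hmC (hmTOP-seq), BGT added an azide-bearing glucose to 5hmC, an ODN was clicked to it, and reads were primed from the ODN. DNA inputs of 500, 50 and 5 ng were each measured in 2 technical replicates. A further 2 libraries per input, made without the BGT step, served as controls. Unmodified CGs (uCG) were read by uTOP-seq from 300 ng in 3 replicates. A single cell line is represented, with no treatment, so that the tests compare elements, assays and inputs and measure only the technical spread between libraries. The labelled libraries held between 14884939 and 32502791 reads and the uTOP-seq libraries between 20120568 and 28412885. The mean over all autosomal CGs was 1.58 and 1.55 reads per CG in the 500-ng libraries and 1.37, 1.11 and 0.972 in the uTOP-seq libraries. At the promoters of 6 genes used by embryonic stem cells uTOP-seq gave a median of 3.39 reads per CG, with 7.21 ± 0.65 (SD, n = 3) at Pou5f1, and at those of 5 genes of other cell types, such as Alb, a median of 0.452. Of these, 4 of 6 and 1 of 5 were above the median of all autosomal promoters, and DNA modification is no measure of expression.

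The control libraries had almost no reads in the members. Controls at 500 and 50 ng and replicate 2 at 5 ng had 0 reads at the 3280 CGs, where a count of 0 allows up to 3 reads, or 0.000915 reads per CG, for counting error alone. The labelled libraries of the same inputs had between 4116 and 8998 reads there. The controls were sequenced to a total of only 3409 to 10072 reads, and at their own mean 0.545 to 1.60 reads would have fallen on the members. Control replicate 1 at 5 ng had 8 reads, all in Zbtb38.

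The sequences that carry the contrast at the promoters are shown 5′ to 3′ on the strand of the gene, each as 250 bases of GRCm38 with the CGs in capitals. The stretch before the start of Zbtb4, chr11:69765662-69765911, had 14 CGs with 0.0714 and 0.143 reads per CG in the 500-ng replicates, and the stretch with the highest 5hmC coverage upstream, chr11:69764912-69765161, had 8 CGs with 23.1 and 22.6. For comparison, the stretch next to the start of Zbtb38, on the minus strand at chr9:96752832-96753081, had 7 CGs with 5.71 and 7.29, and that of Mbd3, on the minus strand at chr10:80399551-80399800, had 15 CGs with 0 reads in both replicates. None of the 4 stretches overlapped an exon of a protein-coding gene.
Zbtb4 next to the start: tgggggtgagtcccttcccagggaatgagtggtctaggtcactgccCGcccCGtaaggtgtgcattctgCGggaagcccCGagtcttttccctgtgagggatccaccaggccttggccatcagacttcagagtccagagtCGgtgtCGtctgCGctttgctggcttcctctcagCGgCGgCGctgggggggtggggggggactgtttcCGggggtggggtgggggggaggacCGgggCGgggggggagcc
Zbtb4 upstream: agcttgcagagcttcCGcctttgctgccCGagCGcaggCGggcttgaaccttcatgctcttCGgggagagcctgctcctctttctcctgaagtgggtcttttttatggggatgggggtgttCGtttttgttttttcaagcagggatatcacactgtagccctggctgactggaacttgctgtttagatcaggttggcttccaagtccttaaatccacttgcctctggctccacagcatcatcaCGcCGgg
Zbtb38 next to the start: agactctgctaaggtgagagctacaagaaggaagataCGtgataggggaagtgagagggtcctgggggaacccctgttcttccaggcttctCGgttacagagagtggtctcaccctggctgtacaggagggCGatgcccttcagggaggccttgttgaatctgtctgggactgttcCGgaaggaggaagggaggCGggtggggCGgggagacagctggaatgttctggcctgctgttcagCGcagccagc
Mbd3 next to the start: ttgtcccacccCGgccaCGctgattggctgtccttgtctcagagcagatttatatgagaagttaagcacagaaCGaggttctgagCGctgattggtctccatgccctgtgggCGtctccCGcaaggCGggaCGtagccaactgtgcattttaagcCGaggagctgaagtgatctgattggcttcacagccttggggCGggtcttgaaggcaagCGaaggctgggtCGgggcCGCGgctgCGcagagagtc
In the same stretches uTOP-seq gave a mean of 0.786 reads per CG next to the start of Zbtb4, 0.208 in its upstream stretch, 5.43 next to the start of Zbtb38 and 4.36 next to the start of Mbd3.

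The members fell into distinct patterns at their promoters, taken as the 2 kb upstream of the gene start. The zinc finger genes were marked by 5hmC: Zbtb4 (chr11:69765912-69784023, plus strand) had 9.02 and 9.14 reads per CG over 50 promoter CGs in the 500-ng replicates, above 99.5% of 20347 autosomal promoters. Zbtb38 (chr9:96682770-96752831, minus strand) had 7.44 and 7.88 over 34 CGs, above 98.7% of promoters. The median promoter had 0.955. Of the MBD genes, Mbd3 (chr10:80392539-80399550, minus strand) had 1.68 and 1.02 over 50 CGs and Mbd2 (chr18:70568189-70626131, plus strand) 0.652 and 0.783 over 23 CGs, close to that median. Mbd4 (chr6:115840697-115853371, minus strand) had only 0.204 and 0.222 over 54 CGs and Mbd6 (chr10:127281956-127289018, minus strand) 0.132 and 0.187 over 91 CGs. In the order of the means, Zbtb4, Zbtb38, Mbd3, Mbd2, Mbd4, Mbd6 and Mbd1, each gene was above the next in both 500-ng libraries, and the scaled replicate ranges of neighbours did not overlap. The lower end rests on few reads, 15 and 18 at Mbd2, 11 and 12 at Mbd4, 12 and 17 at Mbd6 and 0 and 2 at Mbd1. These ranges leave out counting error, and the order of Mbd4 and Mbd6 was not tested.

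The most uCG reads were found at the promoters of Mbd3, Mbd4 and Mbd6. Mbd3 had 5.74, 5.22 and 3.98 reads per CG in the 3 uTOP-seq replicates, a mean of 4.98 ± 0.904 (SD, n = 3) that was above 99.2% of promoters, whose median was 2.08. Mbd4 had 4.70, 3.72 and 3.82 and Mbd6 3.77, 3.74 and 2.77, above 94.4% and 84.9% of promoters. Zbtb38 had 3.38, 2.56 and 2.68, so that its promoter held reads of both kinds, and Mbd2 (2.13, 2.39 and 1.35) and Zbtb4 (1.98, 2.32 and 1.18) were near the median. The promoter CGs of Mbd4 are shared, since 45 of 54 lie inside Ift122, which is transcribed in the opposite direction, and 9 of the 91 of Mbd6 lie inside Ddit3.

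The promoter of Mbd1 (chr18:74267605-74282732, plus strand) had almost no reads of either kind, 0 and 2 reads in the 500-ng replicates and 1 read in the 3 uTOP-seq replicates together over 36 CGs. Of these CGs, 94.4% had no read in any of the 9 labelled and uTOP-seq libraries, against 26.9% of all autosomal CGs. All 36 lie in soft-masked (repeat) sequence of the reference, whereas 9.56% of the CGs in the Mbd1 body do, and only reads of a mapping quality of at least 30 had been kept; the part of the repeats was not tested. As low or lower in both assays were 604 of 20347 autosomal promoters. The transcript of Mbd1 with the longest coding sequence starts 686 bp downstream of the annotated gene start, and the 500 bp upstream of that position had 0.947 and 0.868 5hmC reads per CG at 500 ng and 2.58, 2.92 and 2.13 uCG reads per CG over 38 CGs.

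**Figure D1:**
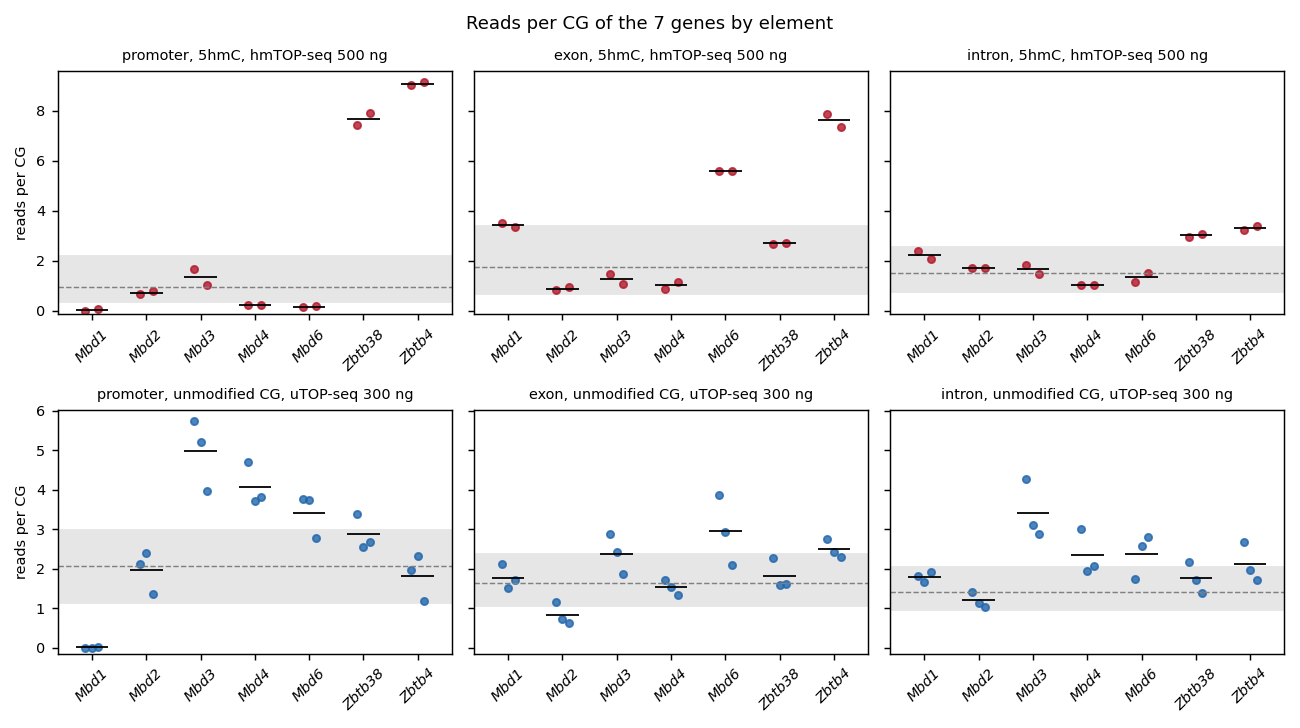
Reads per CG (y axis) of the 7 genes (x axis) in promoters, exons and introns, for 5hmC at 500 ng (top, red, 2 replicates) and for uCG (bottom, blue, 3 replicates). Points are libraries, black bars their means, the dashed line and grey band the median and quartiles of all autosomal protein-coding genes. Zbtb4 and Zbtb38 stand above 7 reads per CG of 5hmC at the promoter, where the other 5 genes stay below 2.

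Promoters were tested against gene bodies of the same gene with edgeR (quasi-likelihood test, library as a block). At 500 ng, 2 of 7 members were higher in the promoter (19.9% of all 19161 genes tested) and 4 were higher in the gene body (47.5%). Coverage in the promoter was 2.61-fold that of the gene body at Zbtb38 (log2 ratio 1.38 ± 0.11 SE, adjusted p = 1.55e-07) and 1.58-fold at Zbtb4 (0.66 ± 0.10, adjusted p = 5.94e-05). It was lower by 4.83 ± 0.25 on the log2 scale at Mbd6 (log2 ratio -4.83, adjusted p = 5.82e-09), by a ratio of -2.25 ± 0.38 at Mbd4 (adjusted p = 0.000144) and of -1.10 ± 0.27 at Mbd2 (adjusted p = 0.00254). At Mbd1, the fourth, the promoter level was 0.999% of that of the gene body, with a 95% exact interval from 0.121% to 3.61% for counting error only. The promoter of Mbd3 did not pass, with a log2 ratio of -0.15 ± 0.22 and an adjusted p of 0.579, but a promoter of 1 kb gave -1.18 with an adjusted p of 0.00561. In the 500-ng libraries together Mbd3 had 77 reads over 6 CGs between 2000 and 1000 bp upstream. It had 56 over 11 CGs between 1000 and 500 bp and 2 over 33 CGs in the last 500 bp.

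In uTOP-seq, 5 of 7 members were higher in the promoter than in the gene body (47.8% of all 19555 genes tested) and 2 were lower (13.8%). The log2 ratio was 1.08 ± 0.12 at Mbd4, 0.80 ± 0.18 at Mbd2, 0.76 ± 0.11 at Mbd3 and 0.71 ± 0.12 at Zbtb38, with adjusted p-values of 7.01e-10, 0.00014, 6.66e-08 and 3.09e-06. Mbd6 had 0.28 ± 0.10 (adjusted p = 0.0164), and without uTOP-seq replicate 2 its adjusted p was 0.137. Zbtb4 had -0.37 ± 0.15 (adjusted p = 0.0293), which was not called without replicate 1 (adjusted p = 0.12) or replicate 3 (0.308). DESeq2 called neither of these 2 genes. The promoter of Mbd1, with its single read, was the other one that was lower. All 7 members were called in uTOP-seq in one direction or the other, as were 12038 of all 19555 genes tested. At 500 ng 12906 of all 19161 genes were called. Only at Zbtb38, among the members, was the promoter higher in both assays.

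Around the start itself, the CG-dense parts of 4 genes had no or nearly no 5hmC. In the first 500 bp of the gene, Mbd2 has 71 CGs, Mbd3 69 and Mbd6 56, and in both 500-ng libraries 0 reads were counted there, which allows at most 0.0423, 0.0435 and 0.0536 reads per CG in a library. Zbtb4, with 49 CGs in the same interval, had 0 and 0.0612 reads per CG. Over all autosomal genes the interval had 0.658. The uTOP-seq means in it were 0.465 at Mbd2, 1.04 at Mbd3, 0.655 at Mbd6 and 1.79 at Zbtb4, below the 2.45 of all genes, and each of these was lower than in the 500 bp before the start, where they were 2.59, 5.23, 2.54 and 2.65. The CG density was 11.2 to 14.2 CGs per 100 bp in the first 500 bp of Mbd2, Mbd3 and Mbd6 and 2.6 to 6.6 in the 500 bp before, and its part in the lower uCG coverage was not tested.

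The other starts differed from this. Mbd4 had 0 and 0.235 5hmC reads per CG over the 17 CGs of its first 500 bp and 6.29, 5.24 and 5.65 of uCG. Zbtb38 has a CG-poor start with 14 CGs in the first 500 bp, and these had 6.43 and 6.29 reads of 5hmC and 5.36, 2.79 and 3.14 of uCG. Its first exon, which is not coding, had 6.77 in both 500-ng replicates. The highest 5hmC level at any of the 7 starts was between 1000 and 500 bp before the start of Zbtb4, where 11 CGs had 18.5 and 18.4 reads per CG at 500 ng and 0, 0.273 and 0.182 in uTOP-seq, against 1.80 and 2.60 over all genes. Nearer to the start 5hmC was 4.41 in the last 500 bp before the start and 0.0306 in the first 500 bp after it, and between 1000 and 2000 bp inside the gene it was 8.31.

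**Figure D2:**
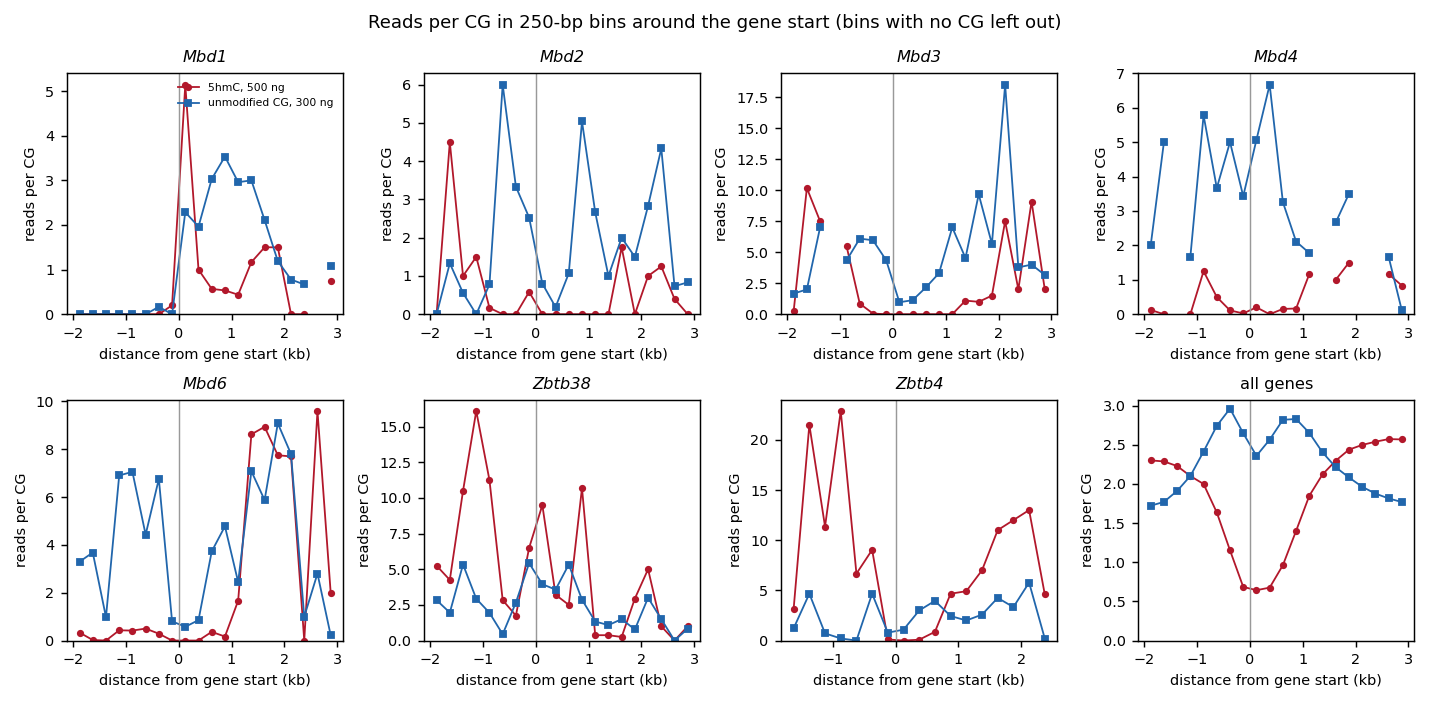
Mean reads per CG (y axis, own scale in each panel) in 250-bp bins against the distance from the gene start in kb (x axis, upstream negative) for 5hmC at 500 ng (red) and uCG (blue), for the 7 genes and pooled over all autosomal protein-coding genes. In the pooled panel 5hmC dips around the start. There uCG is raised on both sides, with 2.96 in the bin from -500 bp and 2.82 in that from 500 bp, and dips to 2.36 in the first bin of the gene. Zbtb38 has no such dip of 5hmC, Zbtb4 has it to one side of a peak upstream, and Mbd1 has at most 0.2 reads per CG in any bin upstream of the annotated start.

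Within the genes, 5hmC was densest in the exons of Mbd6 and Zbtb4. Mbd6 had 5.56 and 5.58 reads per CG over 142 exonic CGs and 1.16 and 1.49 over 45 intronic CGs, a 4.21-fold difference (log2 ratio 2.08 ± 0.14 SE, adjusted p = 1.79e-46). Zbtb4 had 7.88 and 7.33 over 163 exonic and 3.22 and 3.38 over 125 intronic CGs (1.21 ± 0.08, adjusted p = 3.83e-47), and Mbd1 3.50 and 3.34 over 128 exonic and 2.37 and 2.06 over 144 intronic CGs (0.63 ± 0.12, adjusted p = 1.39e-07). These were 3 of 7 members higher in exons, against 46.9% of all 17873 genes tested.

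Another 3 members were called higher in introns in the main fit, against 23.7% of all genes, and 2 of these calls depended on the settings. Mbd2 had 0.818 and 0.923 reads per CG in exons and 1.70 and 1.72 in introns (log2 ratio -0.98 ± 0.13, adjusted p = 9.68e-14). Of its 143 exonic CGs, 106 lie in the first exon of the transcript with the longest coding sequence, where 0 reads of 5hmC were counted. Mbd3 (-0.40 ± 0.18, adjusted p = 0.0409) and Zbtb38 (-0.17 ± 0.07, adjusted p = 0.0267) were close to the threshold and not called by DESeq2 (adjusted p = 0.162 and 0.0797). With the exons of that 1 transcript per gene the ratio of Zbtb38 turned to 0.56 (edgeR adjusted p = 1.02e-13). Zbtb38 is therefore not given a direction. At Mbd4 the levels were 0.877 and 1.15 in exons and 1.01 and 1.03 in introns, with a log2 ratio of -0.02 and a 95% interval from -0.55 to 0.52.

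Exons were compared with introns for uCG as well. In uTOP-seq, Mbd2, Mbd3 and Mbd4 were higher in introns (16.3% of all 18271 genes tested), with log2 ratios of -0.53 ± 0.12, -0.52 ± 0.11 and -0.60 ± 0.17 and adjusted p-values of 0.000141, 5.94e-05 and 0.00234. Zbtb4 alone was called higher in exons (39.5% of all genes) with 0.25 ± 0.10 (adjusted p = 0.0328), and not without replicate 2 (adjusted p = 0.135) or replicate 3 (0.255). Mbd6, with 0.29 ± 0.14 and an adjusted p of 0.0748, was called without replicate 3 (adjusted p = 6.22e-05), and Mbd4 was not called without replicate 1 (adjusted p = 0.0687). With the exons of 1 transcript per gene, the ratio of Mbd4 was -0.10 and that of Zbtb4 0.06, neither called, and that of Mbd6 0.76 (adjusted p = 4.95e-06). The ratios at Mbd1 (-0.03 ± 0.12) and Zbtb38 (0.06 ± 0.08) did not pass the test.

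The 5hmC coverage differed between the exons of a gene. In Zbtb4, exon 3 of 4 (chr11:69775862-69776889, 1028 bp, of which 1019 are coding) had 36 CGs with 17.8 and 16.7 reads per CG at 500 ng and held 37.6% of the 5hmC reads of the gene body. Exon 4, with the rest of the coding sequence and the 3′ UTR, had 89 CGs with 6.79 and 6.35 and held 35.4%, and exon 1, which is not coding, had 23 CGs with 0 reads. In Mbd6, exons 3 to 8 and 10 to 13 had means between 5.67 and 15.1, and exon 1, with 26 CGs, had 0 reads. The highest was exon 11 of 13 (chr10:127283392-127283444) with 18 and 12.3 over 4 CGs. In Mbd1, exon 8 of 16, which is coding, had 12.1 and 11.9 over 8 CGs, whereas exon 4, with 6 CGs, had 0.333 and 1. Taken over all coding sequence, Zbtb4 had 12.4 and 11.8 reads per CG, above 99.4% of 19587 genes, Mbd6 had 8.87 and 8.89, above 96.5%, and Mbd2 had 0.454 and 0.392, above 16.3%.

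The single CGs with the highest 5hmC coverage are shown as 30 bases of GRCm38 on the gene strand with the CG in capitals. Beside them are CGs with no read at 500 ng, each with the highest uCG coverage among such CGs of its gene. They give an impression of the depth that a single CG reached in each assay.
Zbtb4 exon 4, strongest 5hmCG: agggccggaatctgCGggctgggaggactc
Zbtb4 upstream, strongest 5hmCG: ccgcctttgctgccCGagcgcaggcgggct
Zbtb38 intron, strongest 5hmCG: tgggccttagcaccCGgccgtccttggggc
Mbd6 exon 11, strongest 5hmCG: tcctcaggtgccccCGgggatagtcagaaa
Mbd3 upstream, strongest 5hmCG: tgaacttccttgccCGgaggctgcatgtct
Mbd4 intron, strongest 5hmCG: ccatctctccagccCGagaaatgctttttc
Mbd6 upstream, uCG: cagctaatgggcacCGgggctctggaacct
Zbtb4 intron, uCG: gtgactgggggactCGgtctcctggggccg
Mbd3 upstream, uCG: tgtgcattttaagcCGaggagctgaagtga
Mbd4 upstream, uCG: cctcctcccagcctCGgcagcaacaggctt
The CG in the coding part of Zbtb4 exon 4 (chr11:69778064-69778065) had 66 and 45 reads in the 500-ng replicates, 50 and 14 in the 50-ng replicates, 26 and 30 in the 5-ng replicates, and 6, 4 and 2 in uTOP-seq. The CG at -972 bp from the start of Zbtb4 (chr11:69764940-69764941) had 57 and 51 reads in the first pair, 34 and 20 in the second and 0 and 28 in the third, and 0 in the 3 uTOP-seq replicates. Both were covered in both replicates at 500 and 50 ng, and the second was missed in 1 replicate at 5 ng. The intronic CG of Zbtb38 (chr9:96714068-96714069) had 39 and 52 reads at 500 ng and that in exon 11 of Mbd6 (chr10:127283436-127283437) 48 and 24. The latter also had the highest uTOP-seq coverage among the strongest 5hmCGs of the 7 genes, with 21, 19 and 9 reads. The strongest sites of Mbd3 (chr10:80401118-80401119), with 31 and 7 reads, and of Mbd4 (chr6:115843347-115843348), with 9 and 13, were weaker. At the uCG sites, which had 0 reads at 500 ng, uTOP-seq counted 21, 11 and 16 reads at -1241 bp from the start of Mbd6 (chr10:127290259-127290260), 19, 18 and 2 in the first intron of Zbtb4 (chr11:69766310-69766311), 19, 12 and 7 upstream of Mbd3 (chr10:80399644-80399645) and 16, 12 and 9 upstream of Mbd4 (chr6:115853628-115853629).

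The share of CGs with a 5hmC read in both 500-ng replicates ranged from 13.4% of 187 CGs in Mbd4 to 55.9% of 338 in Zbtb4, against 23.4% of all autosomal CGs. Zbtb38 followed with 40.7% of 1174, Mbd1 with 36.7% of 308 and Mbd6 with 33.8% of 278. Mbd3 and Mbd2, at 23.8% of 269 and 22.5% of 726, were near the autosomal share. A read in all 3 uTOP-seq replicates was found at 43.5% of the CGs in Mbd3 and 15.7% in Mbd2, against 14.6% of autosomal CGs. Some CGs gave reads in every one of these 5 libraries, 84 in Zbtb4, 191 in Zbtb38 and 49 in Mbd6, so that reads of both kinds were assigned to the same CG. Both strands of a CG were counted together, and whether the 5hmC and uCG reads came from the same strand was not tested. In Mbd3, 67 CGs had uCG reads in all 3 replicates and 0 reads of 5hmC at 500 ng, and in Mbd4 there were 47.

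Over whole gene bodies, the 7 genes were ordered Zbtb4, Mbd6, Zbtb38, Mbd1, Mbd2, Mbd3 and Mbd4 by 5hmC at 500 ng. Zbtb4 had 5.85 and 5.61 reads per CG and Mbd6 4.50 and 4.60, above 97.2% and 93.0% of 20595 autosomal genes, whose median was 1.58. Zbtb38 (2.89 and 2.99) and Mbd1 (2.90 and 2.66) were not separated beyond their replicates, nor were Mbd2 (1.53 and 1.56) and Mbd3 (1.67 and 1.28). Mbd4 was lowest with 0.947 and 1.09, above 33.7% of genes. For uCG, Mbd3 was highest with 3.63, 2.79 and 2.41 reads per CG, above 91.3% of genes, though not separated from Mbd6 (3.36, 2.84 and 2.26) beyond its replicates, and Mbd2 was lowest with 1.37, 1.05 and 0.947, above 33.1%.

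The 5hmC and uCG coverage of gene bodies were compared in 1 fit with TMM normalization, so that the ratio is relative to the bulk of genes and is no share of modified CGs. Of the 7 members, 5 were higher in 5hmC (39.5% of all 18031 genes tested) and 2 higher in uCG (41.4%). Zbtb4 was 2.02-fold higher in 5hmC (log2 ratio 1.01 ± 0.06 SE, adjusted p = 2.26e-22), followed by Zbtb38 (0.45 ± 0.04, adjusted p = 1.58e-14), Mbd6 (0.41 ± 0.08, adjusted p = 5.62e-06) and Mbd1 (0.34 ± 0.09, adjusted p = 0.000552). Mbd2 had 0.17 ± 0.07 (adjusted p = 0.0175) and was not called without 500-ng replicate 2 (adjusted p = 0.12), without uTOP-seq replicate 2 (0.055) or with library totals in place of TMM (0.748). Mbd6 was not called when only CGs with a read in every replicate were counted (adjusted p = 0.121). Mbd3 and Mbd4 were 2.43-fold and 2.32-fold higher in uCG (-1.28 ± 0.10 and -1.21 ± 0.15, adjusted p = 2.14e-18 and 4.25e-11). The NuRD subunits Mbd2 and Mbd3 were thus called in opposite directions, with the qualification for Mbd2 above.

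**Figure D3:**
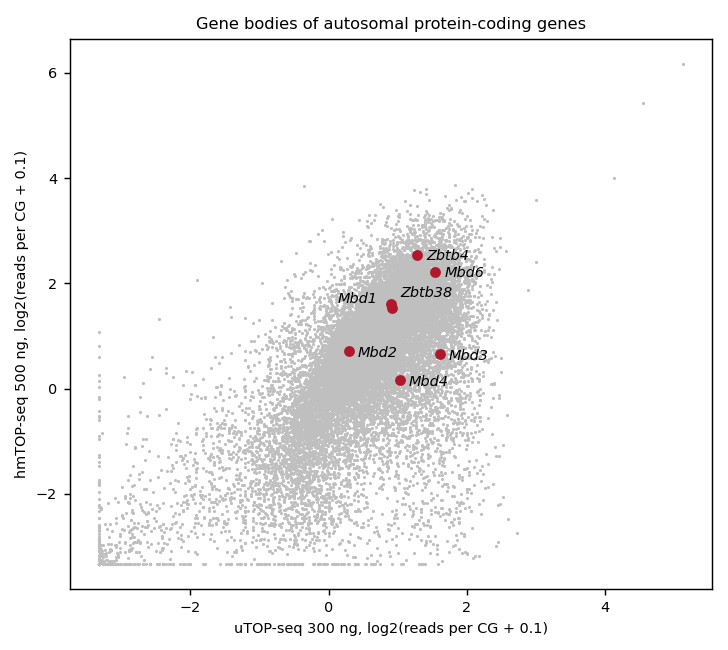
Gene bodies of all autosomal protein-coding genes with at least 5 CGs (grey points) by uCG coverage (x axis) and 5hmC coverage at 500 ng (y axis), both as log2(reads per CG + 0.1), with the 7 genes in red. Zbtb4 and Mbd6 lie near the upper edge of the cloud. Mbd3 lies to the right near mid-height, above 91.3% of genes in uCG and 47.1% in 5hmC. Mbd4 lies lower and less far to the right, above 69.5% in uCG and 33.7% in 5hmC.

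Lower inputs were compared with 500 ng over each gene and its 2 kb upstream. At 50 ng, 0 of 7 members differed (0% of all 18233 genes tested by edgeR), and their log2 ratios lay between -0.17 and 0.14. Over all genes 2201 had an unadjusted p under 0.05 and DESeq2 called 21, none of them a member. For Zbtb38, the gene with the most CGs, the 95% interval of the log2 ratio was -0.08 to 0.13, and for Mbd4, with the fewest, -0.57 to 0.44. At 5 ng, 0 of 7 members differed (0% of all 17149 genes), with 2054 genes at an unadjusted p under 0.05 and 1035 called by DESeq2, again without a member. The log2 ratios lay between -0.26 and 0.73 and the interval of Mbd4 reached from -0.54 to 2.01. Data were also simulated from the gene-body counts of these libraries, with 1 common spread for all genes. Of 200 genes changed 2-fold among 16605, only 10.5% were recovered, so that changes of this size were mostly not detectable. Leaving out 1 library changed the calls: without 50-ng replicate 1, Mbd2 was called (adjusted p = 0.0462), and without replicate 2, Mbd1 (0.0182), each beside 12.6% of all genes tested. Without 5-ng replicate 1, 5 members were called, beside 55.9% of all genes tested, and without replicate 2, 2 others, Mbd2 and Mbd4, beside 55.0%. In these fits the lone library is assumed to vary like the 500-ng pair.

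The spread between the 5-ng replicates differed from gene to gene. In the body of Mbd4, replicate 1 had 1.20 reads per CG and replicate 2 had 0.368, or 1.66 and 0.497 relative to the mean of its library, against 0.814 and 0.499 at 50 ng. On the same scale Mbd2 had 1.56 and 0.881, whereas Mbd3 had 0.803 and 0.826, closer together than its 0.822 and 1.03 at 50 ng. The high levels were kept: Zbtb4 had 2.52 and 2.30 reads per CG in the body and 2.76 and 3.44 in the promoter at 5 ng, above 96.7% of genes in both, and Mbd6 2.16 and 1.64 in the body. At promoters of Mbd2, Mbd3, Mbd4 and Mbd6, 1 of the 2 replicates at 5 ng had 0 reads, as had 1 at 50 ng for Mbd4 and Mbd6. The pattern of exons against introns was also compared between inputs, where 0 of 7 members differed at 50 ng (0% of 18071 genes, 1205 of them at an unadjusted p under 0.05) and 0 of 7 at 5 ng (0% of 17977, 1887 at an unadjusted p under 0.05). DESeq2 was not run on this comparison. The log2 changes of the members at 5 ng lay between -1.33 and 1.08. Only Mbd1 had an unadjusted p under 0.05 there, with -1.10 ± 0.41 (edgeR adjusted p = 0.473). In its 5-ng replicates exons had 0.789 and 0.961 reads per CG and introns 1.34 and 1.08. This order was the reverse of that at 500 ng. Of the members, Mbd6 had the largest change at 50 ng, -0.85 ± 0.27 with an adjusted p of 0.701, and it was called without 50-ng replicate 1 (adjusted p = 0.00181), as was Mbd1 without 50-ng replicate 2 (0.0227), beside 7.11% and 8.73% of all genes tested. Without 5-ng replicate 1, 5 members were called beside 52.6% of all genes, and without replicate 2, 3 members beside 51.2%.

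Single CGs with reads in only 1 replicate were more frequent at lower input. Among the members, 389 CGs had at least 10 reads in 1 of the 500-ng replicates, and 1.80% of them had 0 reads in the other replicate. At 50 ng this was so for 21.4% of 345 CGs and at 5 ng for 79.4% of 272 CGs. Of all autosomal CGs it was so for 2.01%, 31.5% and 81.1%, so that the share of the members was lower at 50 ng. The difference was not tested. As a description over the CGs of a gene, which share its library and depth, Pearson r between the 500-ng replicates was between 0.548 in Mbd4 (187 CGs) and 0.913 in Zbtb4 (338 CGs), and between -0.0217 and 0.229 at 5 ng.

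**Figure D4:**
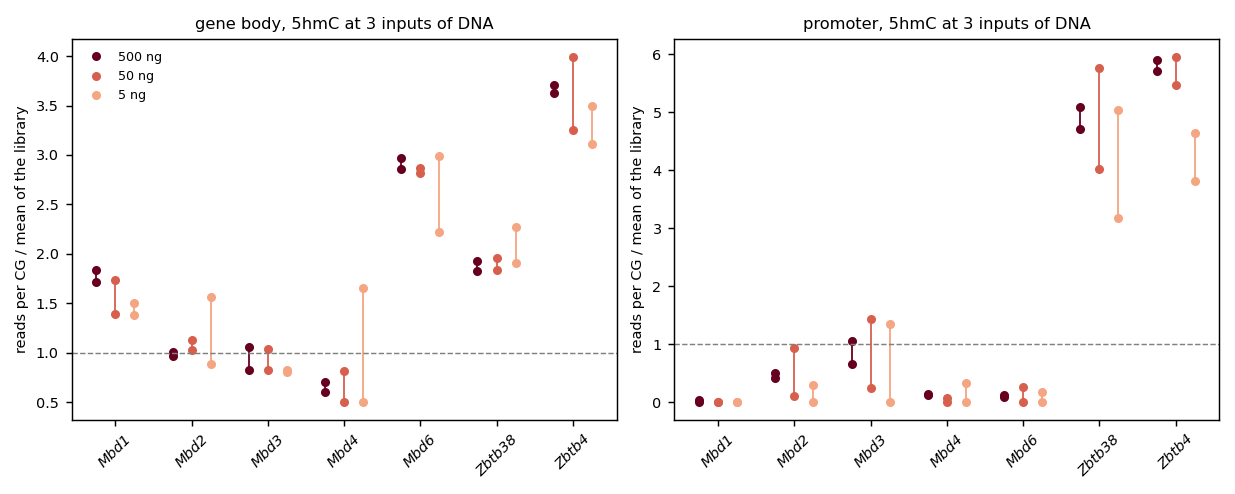
Reads per CG divided by the mean of the library over autosomal CGs (y axis) for the 7 genes (x axis) at 500, 50 and 5 ng (dark to light), in gene bodies (left) and promoters (right). Points are the 2 technical replicates, joined by a line, and the dashed line marks the library mean. The replicates of the Mbd4 body lie farthest apart at 5 ng (1.66 and 0.497), and Zbtb4 and Zbtb38 stay above 3 at the promoter at every input.

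Other genes of the same pathways were taken from lists of relatives and partners. Of 7 further genes listed with the MBD family, whether or not they carry the domain, 2 were above the median of all genes in gene-body 5hmC. These were Baz2a with 2.32 and Baz2b with 1.73 reads per CG, and the lowest of the 7 was Mbd3l1 with 0.466. In exons against introns at 500 ng, 4 of these 7 were higher in exons and 2 in introns, beside 46.9% and 23.7% of all genes. The former were Mbd5 (log2 ratio 2.44), Baz2a (2.12), the histone methyltransferase Setdb1 (1.33) and Baz2b (0.81). At the promoters 5 of 7 had less 5hmC than in the gene body and none more, beside 47.5% and 19.9% of all genes. Both readers with an SRA domain, Uhrf1 and Uhrf2, were higher in the promoter (log2 ratios of 0.67 and 0.62). Uhrf1, which directs maintenance methylation to hemimethylated CGs, had 5.73 ± 0.99 (SD, n = 2) 5hmC reads per CG at its promoter, above 96.3% of promoters.

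Of 12 other NuRD subunits, 8 were above the median of all genes in gene-body 5hmC. The remodelling ATPases Chd5 and Chd3 were highest with 5.24 and 4.20 reads per CG, and the deacetylase Hdac2 lowest with 0.852. In 5hmC against uCG, 6 of the 12 were higher in 5hmC and 5 in uCG, near the 39.5% and 41.4% of all genes, with log2 ratios from 1.03 at Chd5 to -0.92 at Mta2. Mta2 was also the only subunit of the list called higher in the promoter than in the gene body (log2 ratio 1.54, beside 19.9% of all genes), with 4.60 ± 0.40 (SD, n = 2) reads per CG there. In the input comparisons edgeR called none of the listed genes that were tested. At 5 ng 1 gene listed with the MBD family was left out for low counts. On the X chromosome, which is outside the autosomal comparison because an XY cell has a single copy, Zbtb33 had 0.165 and the NuRD subunit Rbbp7 0.332 reads per CG in the gene body at 500 ng. At the promoter they had 0.107 and 0.262.

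For each member the most similar gene was sought among 18441 autosomal genes by 6 values, the log2 levels of 5hmC at 500 ng and of uCG in promoter, exons and introns, each standardized over genes. The closest were Htra3 to Zbtb38 (Euclidean distance 0.252), Serinc4 to Mbd6 (0.29), Zap70 to Zbtb4 (0.295), Hsp90b1 to Mbd4 (0.327), Atxn3 to Mbd2 (0.345), Mpv17l2 to Mbd3 (0.37) and Prr18 to Mbd1 (0.873). Among the members themselves, Zbtb4 and Zbtb38 were nearest to each other at 1.24, and Mbd3 and Mbd4 at 1.71. Both distances were larger than those of the same genes to their closest genes. The median distance to all genes was between 2.18 and 4.77, but a smallest distance cannot be judged against a median. Whether the members were alike was not tested. Zap70 had 7.27 5hmC reads per CG in the promoter and 6.87 in exons. Mbd1 was the farthest from its closest gene and from the other members, and its closest gene had 0 reads in the promoter in both assays.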

How the data were processed

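Reads primed at 5hmC (hmTOP-seq) and at unmodified CGs (uTOP-seq) were measured in E14TG2a cells. The deposited values are read counts per CG of each library, which the authors made from raw reads of at least 80 nt mapped to mm10 at a mapping quality of at least 30, with duplicates of the same start and length removed and without molecular identifiers. The aligner is not given in the sources used here. Counts of both strands of a CG were summed. CGs were assigned with GENCODE M21 to promoter (2 kb upstream), exon (of any protein-coding transcript of the gene) or intron (the rest of the gene span). Sequences were read from GRCm38.p6. Libraries titled with K were taken as the controls without BGT.

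Tests used the edgeR 4.0.16 quasi-likelihood test in R 4.3.3 on counts over all autosomal protein-coding genes, with Benjamini-Hochberg adjustment and a threshold of 0.05. Contrasts of elements had library total times CG number as the offset, at least 5 CGs in each element and at least 10 reads in all. Contrasts of inputs (gene plus upstream) and of assays (gene body) used TMM and at least 10 reads in every library. DESeq2 1.42.0, other normalizations, filters, promoter lengths and transcript sets, a cap of 20 reads per CG and leaving out libraries were alternatives. The scripts were tested on simulated data, where 88% to 99.5% of 2-fold changes were recovered in each simulated comparison but that of 5 ng. Python 3.11.15 was used for levels and figures. The members, lists and tests were chosen with earlier results of these data known: all 7 members are described, with the 3 strongest 5hmCGs and the strongest uCG without 5hmC reads of each gene considered for printing. Intervals and limits from counts of 0 cover counting error only.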

Additional observations from a re-analysis of the deposited data

Results flagged for a closer look

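Reads in a control library were found at 1 member. Control replicate 1 at 5 ng had 8 reads in Zbtb38 at 2 CGs, above the 0 reads of the other 5 control libraries over all 7 genes. Of these, 7 reads were at a single intronic CG (chr9:96709096-96709097), 43735 bp from the gene start, where the labelled libraries at 5 ng had 0 and 15 reads and those at 500 ng had 0 and 0. The labelled 5-ng libraries had 4365 and 4116 reads in the 7 genes. The origin of the control reads was not tested.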

How the results depend on the processing

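Of the values that answer a comparison, 127 kept their side of the threshold or stayed within 1.5 times, 29 gained calls and 1 moved, the median gene-body coverage of the members, which was 2.52 in place of 2.78 reads per CG when only CGs with a read in every replicate were counted. At 50 against 500 ng, the 0 genes called became 1269 with those CGs (1 of them a member), 21 with DESeq2, 1 with a cap of 20 reads and 105 with the replicate number as a block. At 5 against 500 ng they became 4, 1035, 1 and 1. Leaving out 1 library gave 1 to 2327 genes (0 to 1 members) at 50 ng and 0 to 9884 (0 to 5 members) at 5 ng. For exons against introns between inputs it gave 0 to 1570 genes (0 to 1 members) at 50 ng and 5 to 9426 (0 to 5 members) at 5 ng. With a 50- or 5-ng library left out, the lone sample is assumed to vary like the other group, and the cause of these changes was not tested. A change of direction was seen for Zbtb38 in exons against introns (0.56 with 1 transcript per gene) and for Zbtb4 at 50 ng (0.36 with CGs read in every replicate). Same-numbered libraries were not treated as pairs in the main fits. The replicate differences of 2 inputs correlated at 0.03, -0.01 and -0.01 over genes, and the block called 0 members at either input. Whether same-numbered libraries shared a preparation was not tested. Dropping the library block from the contrasts of elements left 6, 4, 6 and 7 members called. The 5-ng libraries limit what can be seen, since 10.5% of simulated 2-fold changes were recovered there.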
